A study of Arabidopsis thaliana with 4 samples.

Results

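The histone genes of Arabidopsis thaliana are described here as 41 loci, chosen by locus identifier as the genes that encode the linker histone H1 and the core histones H2A, H2B, H3 and H4. They are 41 of the 33557 loci listed in each library. By product they fall into 8 H4 genes, 5 genes for H3.1, 3 for H3.3, 4 for the canonical H2A, 3 for H2A.W, 2 for H2A.X, 3 for H2A.Z, 10 for H2B and 3 for H1. Levels were measured by RNA-seq in whole seedlings aged 14 days and kept under 16 h of light and 8 h of dark. The groups were mos2-2, a line with a T-DNA insertion in MOS2 (2 libraries), and its wild type Col-0 (2 libraries). Both genotypes share the Columbia background, and mos2-2 is 1 insertion line. MOS2 encodes a nuclear RNA-binding protein known for its role in plant immunity and in the making of small RNAs. Nothing in the labels tells whether replicates were grown as separate batches of plants, so p-values here reflect a spread between libraries that may be technical.

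DNA in the nucleus is wound around octamers of H2A, H2B, H3 and H4, and H1 binds the DNA between them. Canonical H2A, H2B, H3.1 and H4 are made in bulk while DNA is copied, whereas variants such as H3.3 and H2A.Z are put into chromatin outside replication and mark transcribed or regulated genes. In plants, unlike in animals, the messages of replication-coupled histones carry poly(A) tails, so libraries from poly(A) RNA retain them.

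The values are FPKM, fragments scaled by transcript length and by the number of mapped fragments. MOS2 itself, the check on the line, had 2.16 and 1.16 FPKM in mos2-2 libraries, against 50.3 and 36.9 FPKM in Col-0 libraries. Its log2 difference was -4.08, with an adjusted p of 0.0727 in limma. The low values of the table put the depth of Col-0 replicate 1 at 0.634 of that of Col-0 replicate 2, and mos2-2 replicates 1 and 2 at 1.01 and 1.04 of it. Of the 3 leaf markers, RBCS1A, a small subunit of Rubisco, was at 13085 and 15661 FPKM in mos2-2 and at 10957 and 8900 FPKM in Col-0. The other two overlapped between genotypes, RBCS2B with 3032 and 2966 FPKM in mos2-2 and 4464 and 1751 FPKM in Col-0, and CAB2 with 2252 and 8000 FPKM in mos2-2 and 1061 and 6932 FPKM in Col-0. All 3 seed markers were listed at 0 in every library, as was the root cap marker SMB. The root gene SHR had 3.38 and 6.69 FPKM in mos2-2 and 9.08 and 6.73 FPKM in Col-0. SCR, also a root gene, had 4.21 and 4.88 FPKM in mos2-2 and 6.01 and 5.23 FPKM in Col-0. Both were lower in mos2-2 without overlap, as were 24.7% of all genes tested. The 41 histone genes held 0.369% and 0.372% of all FPKM in mos2-2 replicates 1 and 2, against 0.622% and 0.390% in Col-0 replicates 1 and 2.

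The promoters of these genes carry short elements known from plant histone genes, and a set of them is printed because they show which elements the groups share. The 250 bases before the annotated start of each gene were read on the gene's own strand from the TAIR10.1 genome of RefSeq. Each sequence is 5′ to 3′, and capitals mark the histone octamer CGCGGATC and the hexamer ACGTCA, searched on both strands (GATCCGCG and TGACGT). The first 3 hold the octamer (the H4 gene AT5G59690, chr5:24051224-24051473, + strand; HTR2, chr1:2972335-2972584, − strand; HTR9, chr5:3270958-3271207, − strand). HTB9 (chr3:16898014-16898263, − strand) stands for the H2B genes, and H1.3 (chr2:7845673-7845922, + strand) is the one of the 41 with the widest genotype difference in log2(FPKM + 1).
AT5G59690: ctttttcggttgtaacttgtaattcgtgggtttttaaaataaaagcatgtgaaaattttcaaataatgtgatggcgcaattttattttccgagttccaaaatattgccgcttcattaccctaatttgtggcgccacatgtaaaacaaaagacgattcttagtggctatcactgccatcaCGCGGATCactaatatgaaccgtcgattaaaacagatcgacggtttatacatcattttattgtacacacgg
HTR2: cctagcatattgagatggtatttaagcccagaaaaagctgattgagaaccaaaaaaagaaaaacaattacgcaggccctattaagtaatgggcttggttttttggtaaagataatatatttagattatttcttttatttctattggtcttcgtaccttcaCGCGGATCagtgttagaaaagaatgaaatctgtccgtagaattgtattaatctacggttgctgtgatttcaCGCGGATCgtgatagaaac
HTR9: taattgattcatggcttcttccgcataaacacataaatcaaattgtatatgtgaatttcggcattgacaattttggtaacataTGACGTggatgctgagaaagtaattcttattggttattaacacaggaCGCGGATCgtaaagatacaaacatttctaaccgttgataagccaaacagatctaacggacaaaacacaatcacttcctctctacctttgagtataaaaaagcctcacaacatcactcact
HTB9: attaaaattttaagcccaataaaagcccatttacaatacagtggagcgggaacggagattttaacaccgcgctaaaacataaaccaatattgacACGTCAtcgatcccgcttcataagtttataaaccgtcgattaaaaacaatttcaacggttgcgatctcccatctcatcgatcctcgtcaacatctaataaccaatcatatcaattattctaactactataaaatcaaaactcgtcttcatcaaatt
H1.3: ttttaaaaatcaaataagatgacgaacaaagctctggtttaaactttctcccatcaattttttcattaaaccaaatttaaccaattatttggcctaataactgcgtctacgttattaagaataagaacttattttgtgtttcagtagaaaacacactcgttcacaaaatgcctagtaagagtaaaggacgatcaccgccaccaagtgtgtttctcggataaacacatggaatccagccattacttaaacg

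The octamer was found in 10 of the 41 histone promoters (24.4%), against 37 of 27443 promoters of nuclear protein-coding genes (0.135%). It stood before 3 of 5 H3.1 genes, 2 of 4 canonical H2A genes, 2 of 8 H4 genes and 1 gene each of H3.3, H2A.W and H1. The hexamer was found in 11 histone promoters (26.8%), against 7.69% of all promoters, and 8 of these 11 belonged to H2B genes. The H2B promoters held no octamer, and those of H2A.X and H2A.Z held neither element. Only exact letters were counted, so near forms such as CACGGATC before HIS4 and GATCCGCA before HTB6 were left out. The 2 elements shared no base in the sequences printed. The G-box CACGTG was about as frequent before histone genes (7.32%) as before all genes (6.49%), and so was TATAAA, at 46.3% of histone genes and 47.3% of all genes. The E2F letters TTTCCCGC were in no histone promoter and in 0.619% of all promoters. At so low a share, their absence from 41 promoters says little, and other spellings of the E2F site were not searched. The windows were not cut where another gene lay in them, either for histone genes or for all genes. Those of HTR4, HTR5, HTA5, HTA9, HTB4 and several other members ran into another protein-coding gene. These matches describe letters within 250 bases and nothing about the factors that may bind them.

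All 41 histone genes passed the filter of a mean of at least 1 FPKM. None of them passed an adjusted p of 0.05 in limma's moderated test of mos2-2 against Col-0, in which 12 of 19236 genes passed (0.0624%). Their mean log2 level was nevertheless lower in mos2-2 for 39 of the 41, against 59.4% of all genes tested. The count was 38 with median-ratio scaling or quantile normalization and 37 with the trend of FPKM against transcript length removed. The median log2 difference of the 41 was -0.34, beside -0.09 over all genes. Quantile normalization put these medians at -0.24 and 0.01. With the libraries as deposited, their adjusted p-values in limma ran between 0.711 and 0.967. The mos2-2 libraries were both below both Col-0 libraries for 14 of the 41, with a background of 24.7%, and above both for 0 of the 41, with a background of 13.1%. In whole seedlings, fewer cells of a type and less RNA per cell cannot be told apart.

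The direction rested largely on 1 wild-type library. Col-0 replicate 1 was the highest of the 4 libraries for 37 of the 41 histone genes, against 41.6% of all genes. The median log2 difference of Col-0 replicate 1 over Col-0 replicate 2 was 0.72 for the histone genes and 0.16 for all genes. Without Col-0 replicate 1, the median difference between mos2-2 and Col-0 was -0.05, with 22 histone genes lower in mos2-2 and 19 higher. Leaving out Col-0 replicate 2 instead gave -0.69. For 35 of the 41 (85.4%), the 2 Col-0 libraries stood further apart on the log2 scale than the 2 genotype means did, against 60.2% of all genes.

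**Figure D1:**
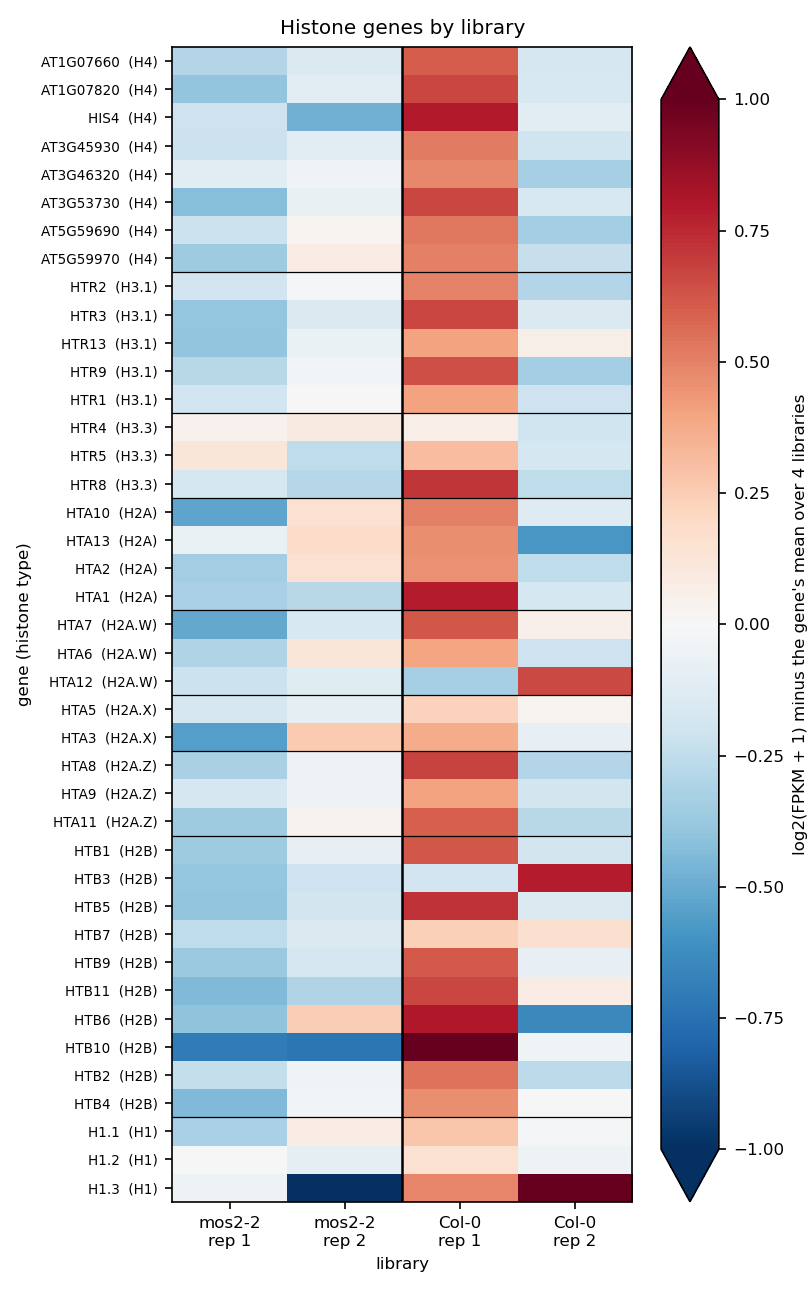
Each row is a histone gene and each column a library, mos2-2 left of Col-0. Colour is log2(FPKM + 1) minus the gene's mean over the 4 libraries, and values beyond the colour limit of 1 take the end colour. Col-0 replicate 1 is the reddest column for 37 of the 41 genes, and HTA12, HTB3 and H1.3 are reddest in Col-0 replicate 2.

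H4 is the core histone that pairs with H3, and its 8 genes encode 1 and the same protein of 103 residues. All 8 had their highest level in Col-0 replicate 1, and with all 4 libraries the mean log2 level of all 8 was lower in mos2-2. AT3G46320 was 0.05 higher once the trend with transcript length was removed. Without Col-0 replicate 1, AT3G46320 was 0.26 higher in mos2-2, AT5G59690 0.24, AT5G59970 0.09 and AT3G45930 0.04. The gene with the highest mean FPKM in this group, AT5G59690, had 279 and 329 FPKM in mos2-2 replicates 1 and 2, and 468 and 256 FPKM in Col-0 replicates 1 and 2. Both mos2-2 values lay between those of the 2 Col-0 libraries, and the log2 difference was -0.19 (SE 0.40). HIS4 (AT2G28740) had 228 and 189 FPKM in mos2-2, against 458 and 245 FPKM in Col-0. It was the single H4 gene without overlap between the genotypes, and its log2 difference of -0.69 (SE 0.40) had an adjusted p of 0.795 in limma.

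AT3G53730 had 187 and 238 FPKM in mos2-2 and 399 and 224 FPKM in Col-0. AT3G46320 had 159 and 168 FPKM in mos2-2 and 240 and 136 FPKM in Col-0. AT1G07820 had 120 and 146 FPKM in mos2-2 and 251 and 141 FPKM in Col-0. In these 3 genes Col-0 replicate 1 was the high library, and the genotypes overlapped. The H4 gene with the lowest FPKM, AT1G07660, had 48.9 and 54.5 FPKM in mos2-2 and 92.3 and 53.5 FPKM in Col-0. AT3G45930 lay between 110 and 183 FPKM over the 4 libraries and AT5G59970 between 119 and 216 FPKM. Summed over the 8 genes, H4 reached 1326.5 ± 108 FPKM in mos2-2 and 1802 ± 715 FPKM in Col-0 (SD, n = 2 each). Within that sum, the share of HIS4 varied most between libraries, at 18.2% and 13.5% in mos2-2 and 19.8% and 18.9% in Col-0. Coding sequences of pairs of H4 genes were 78.8% to 98.1% identical, and AT3G45930 and AT3G46320 shared an unbroken stretch of 160 nt. How reads with several matches were divided is not given in the sources used here, so the split between such H4 genes is uncertain.

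H3.1 is the replication-coupled H3, and its 5 genes encode 1 protein that differs from H3.3 at 4 of 136 residues. As with H4, all 5 were highest in Col-0 replicate 1 and had a lower mean log2 level in mos2-2. HTR2 (AT1G09200) had 143 and 161 FPKM in mos2-2, against 231 and 133 FPKM in Col-0. HTR1 (AT5G65360) had 161 and 183 FPKM in mos2-2, against 242 and 158 FPKM in Col-0, and HTR9 (AT5G10400) had 95.6 and 114 FPKM in mos2-2, against 181 and 91.6 FPKM in Col-0. In all 3, both mos2-2 libraries lay above Col-0 replicate 2 and below Col-0 replicate 1. The 2 lowest genes of the group, HTR3 (AT3G27360) and HTR13 (AT5G10390), did not overlap. HTR3 had 34.0 and 40.3 FPKM in mos2-2 and 71.6 and 40.4 FPKM in Col-0, so that mos2-2 replicate 2 and Col-0 replicate 2 were nearly level. HTR13 had 32.6 and 41.1 FPKM in mos2-2 and 57.3 and 45.0 FPKM in Col-0, with a log2 difference of -0.46 (SE 0.28). HTR3 overlaps SDH2-1 over 328 nt on the same strand, and that gene was at 27.6 and 24.3 FPKM in mos2-2 and 24.2 and 22.7 FPKM in Col-0.

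H3.3 replaces H3.1 where chromatin is transcribed. HTR5 (AT4G40040) and HTR4 (AT4G40030) were the 2 histone genes with the highest mean FPKM. HTR4 had 438 and 453 FPKM in mos2-2, against 445 and 372 FPKM in Col-0, and was the single histone gene with its highest level in a mos2-2 library. Its log2 difference was 0.13 (SE 0.29). HTR5, which lies 42 nt from HTR4, had 578 and 446 FPKM in mos2-2 and 658 and 471 FPKM in Col-0. HTR8 (AT5G10980) had 287 and 266 FPKM in mos2-2 and 534 and 273 FPKM in Col-0. The Col-0 libraries thus stood 1.199-fold apart for HTR4, 1.40-fold for HTR5 and 1.96-fold for HTR8, although all 3 genes encode the same protein. The summed FPKM of H3.1 over that of H3.3 was 0.357 and 0.463 in mos2-2 and 0.478 and 0.420 in Col-0, so the genotypes overlapped in this ratio.

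**Figure D2:**
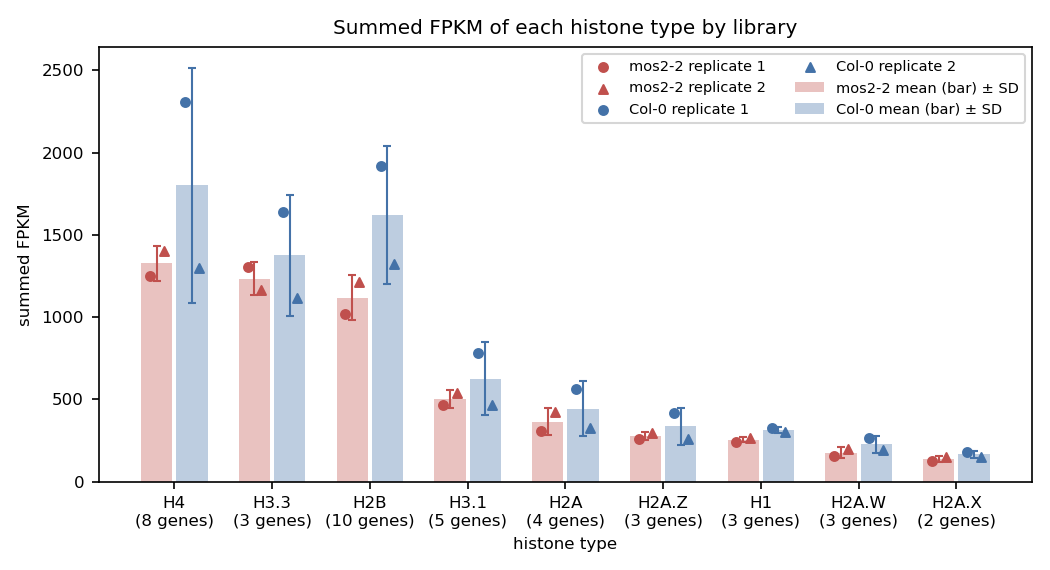
Bars are the mean summed FPKM of each histone type in mos2-2 (left of each pair) and Col-0 (right), error bars are SD over 2 libraries, and points are the libraries. For H4 the mos2-2 libraries were at 1250 and 1403 FPKM and the Col-0 libraries at 2307 and 1297 FPKM. The Col-0 libraries lie apart in every type and are closest for H1, 1.097-fold apart.

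Canonical H2A forms a dimer with H2B. HTA13 (AT3G20670), the gene with the second positive difference, had 88.3 and 105 FPKM in mos2-2, against 128 and 61.7 FPKM in Col-0, a log2 difference of 0.11 (SE 0.42). HTA10 (AT1G51060) had 114 and 182 FPKM in mos2-2 and 234 and 150 FPKM in Col-0. HTA2 (AT4G27230) had 68.3 and 97.3 FPKM in mos2-2 and 120 and 72.9 FPKM in Col-0. In these 3 genes the genotypes overlapped. HTA1 (AT5G54640), known as the gene disrupted in a mutant resistant to Agrobacterium transformation, had 35.8 and 37.1 FPKM in mos2-2 and 78.6 and 39.9 FPKM in Col-0, without overlap. HTA10 and HTA13 share an unbroken 87 nt, so the split between them is uncertain.

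Of the H2A variants, H2A.W marks heterochromatin, H2A.X is the form phosphorylated at DNA breaks and H2A.Z sits at gene starts and over genes that respond to the environment. All 3 H2A.Z genes were highest in Col-0 replicate 1, and in all 3 the genotypes overlapped. HTA9 (AT1G52740) had 190 and 206 FPKM in mos2-2 and 282 and 187 FPKM in Col-0. HTA11 (AT3G54560) had 50.1 and 66.3 FPKM in mos2-2 and 98.4 and 53.0 FPKM in Col-0. HTA8 (AT2G38810) had 18.3 and 22.2 FPKM in mos2-2 and 37.5 and 18.7 FPKM in Col-0. The order of the 3 levels, HTA9 above HTA11 above HTA8, was the same in all 4 libraries. Summed H2A.Z over summed H2A was 0.844 and 0.697 in mos2-2, against 0.745 and 0.796 in Col-0.

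The H2A.X genes HTA5 (AT1G08880) and HTA3 (AT1G54690) differed in how they varied. HTA5 had 103 and 109 FPKM in mos2-2 and 137 and 118 FPKM in Col-0, without overlap, and its 2 Col-0 libraries were 1.16-fold apart. HTA3 had 23.6 and 42.3 FPKM in mos2-2 and 45.8 and 33.1 FPKM in Col-0, and here the mos2-2 libraries differed more than the Col-0 libraries. It overlaps AT1G54680 on the opposite strand over 259 nt, and that gene had 3.79 and 4.07 FPKM in mos2-2 and 8.34 and 7.06 FPKM in Col-0. Among the H2A.W genes, HTA7 (AT5G27670) had 41.3 and 53.0 FPKM in mos2-2 and 91.9 and 61.6 FPKM in Col-0, a log2 difference of -0.67 (SE 0.32, adjusted p = 0.756 in limma). HTA6 (AT5G59870), the H2A.W gene with the highest level, overlapped, with 99.5 and 133 FPKM in mos2-2 and 161 and 106 FPKM in Col-0.

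The third H2A.W gene, HTA12 (AT5G02560), ran against the others. It had 12.9 and 13.8 FPKM in mos2-2, against 11.9 and 24.6 FPKM in Col-0, so that Col-0 replicate 1 was its lowest library and Col-0 replicate 2 its highest. HTB10 (AT5G02570), an H2B gene of 522 nt, lies wholly within the HTA12 locus on the opposite strand. It had 1.298 and 1.257 FPKM in mos2-2, against 9.32 and 2.61 FPKM in Col-0, the reverse order of the Col-0 libraries. No strand setting is given in the sources used here. Without strand, reads from the 522 nt that these 2 loci share cannot be told apart.

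H2B pairs with H2A. Of its 10 genes, 7 were lower in mos2-2 without overlap, against 24.7% of all genes. The median log2 difference of the 10 was -0.50 with all libraries and -0.21 without Col-0 replicate 1. HTB11 (AT3G46030) had 116 and 128 FPKM in mos2-2, against 252 and 167 FPKM in Col-0, a log2 difference of -0.75 (SE 0.32, adjusted p = 0.733 in limma). HTB9 (AT3G45980) had 187 and 216 FPKM in mos2-2, against 372 and 229 FPKM in Col-0, and HTB4 (AT5G59910) had 208 and 277 FPKM in mos2-2, against 390 and 281 FPKM in Col-0. In both genes the nearest mos2-2 and Col-0 libraries were close while Col-0 replicate 1 stood above the rest. HTB5 (AT2G37470) repeated this pattern, with 96.3 and 111 FPKM in mos2-2 and 210 and 115 FPKM in Col-0. HTB2 (AT5G22880), the H2B gene with the highest mean, overlapped, at 247 and 283 FPKM in mos2-2 and 426 and 243 FPKM in Col-0. HTB1 (AT1G07790) overlapped as well, at 57.7 and 69.9 FPKM in mos2-2 and 114 and 65.3 FPKM in Col-0.

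HTB3 (AT2G28720) was the H2B gene with its highest level in Col-0 replicate 2. It had 89.6 and 102 FPKM in mos2-2, against 103 and 203 FPKM in Col-0, and took 15.3% of the H2B sum in Col-0 replicate 2 and 5.37% in Col-0 replicate 1. Its neighbour HIS4, 1536 nt away, was highest in Col-0 replicate 1. The remaining H2B genes, HTB7 (AT3G09480), HTB6 (AT3G53650) and HTB10, were low in every library. HTB7 had 4.72 and 5.18 FPKM in mos2-2 and 7.03 and 6.64 FPKM in Col-0, and was the gene without overlap whose Col-0 libraries lay closest, 1.06-fold apart. HTB6 had 14.0 and 22.5 FPKM in mos2-2 and 33.6 and 11.7 FPKM in Col-0, which put both mos2-2 libraries between the Col-0 libraries. HTB10 had a log2 difference of -1.42 (SE 0.55, adjusted p = 0.713 in limma). It was -0.66 without Col-0 replicate 1, -2.18 without Col-0 replicate 2, -0.73 with a pseudocount of 5 and -1.88 with one of 0.1. Judged by the FPKM that 1 read is worth, it rested on roughly 4.64 and 4.65 reads in mos2-2 and 21 and 9.27 reads in Col-0.

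**Figure D3:**
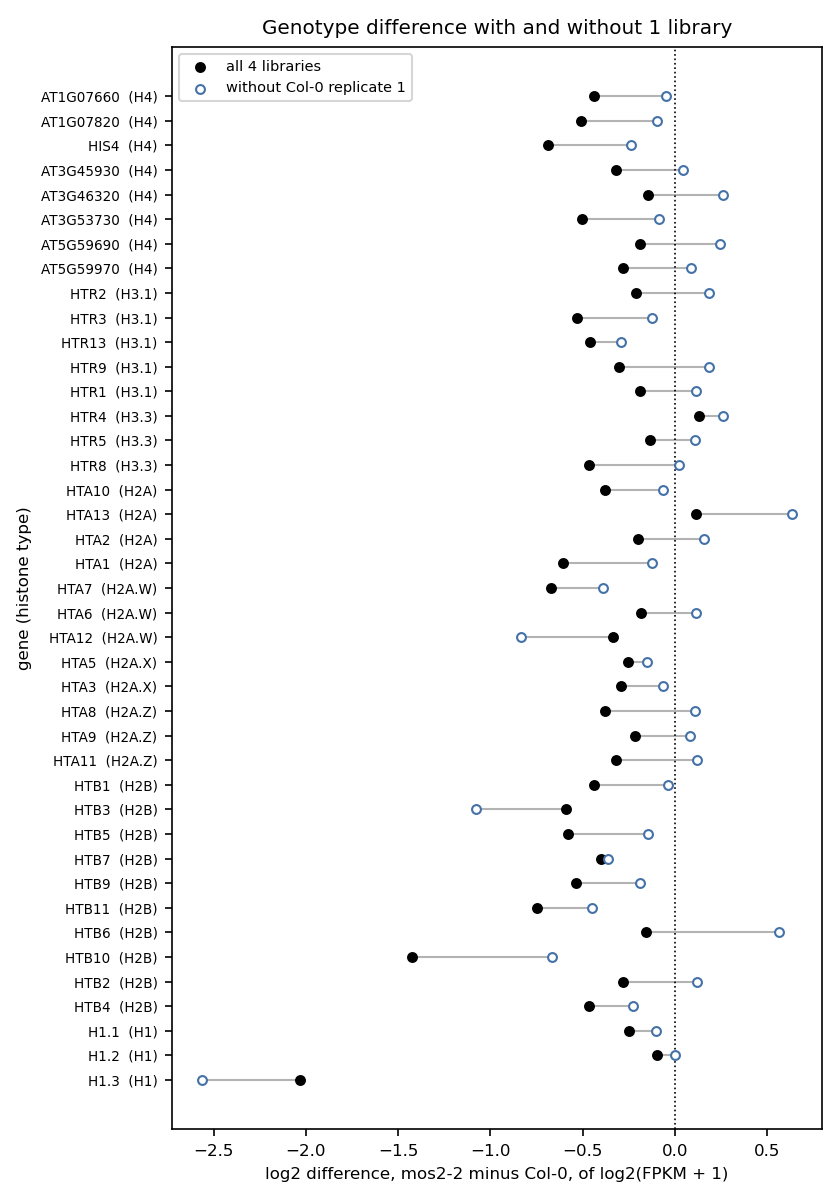
Points are log2 differences, mos2-2 minus Col-0, of log2(FPKM + 1) for each histone gene, filled with all 4 libraries and open without Col-0 replicate 1; the dotted line is 0. With all libraries 39 points lie left of 0, and without Col-0 replicate 1 22 do; H1.3, HTB3 and HTA12 move further left.

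The linker histone H1 has 2 main forms, H1.1 (AT1G06760) and H1.2 (AT2G30620), and the small H1.3, known as a form induced by drought and low light. H1.3 (AT2G18050) had 13.2 and 2.73 FPKM in mos2-2, against 19.6 and 42.1 FPKM in Col-0. The genotypes did not overlap, but mos2-2 replicate 2 stood at only 0.207 of mos2-2 replicate 1, and Col-0 replicate 1 at 0.466 of Col-0 replicate 2. The mean was 7.97 ± 7.41 FPKM in mos2-2 and 30.9 ± 15.9 FPKM in Col-0 (SD, n = 2 each). The log2 difference was -2.03 (SE 0.74), with an adjusted p of 0.711 in limma. H1.3 was the single one of the 41 under an unadjusted p of 0.05 in limma (0.0417), while 5.36% of all genes were lower in mos2-2 at that level. Unlike most histone genes, H1.3 was higher in Col-0 replicate 2 than in Col-0 replicate 1, and its difference without Col-0 replicate 1 was -2.56. Leaving out mos2-2 replicate 2 gave -1.07.

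In both main H1 genes the genotypes overlapped. H1.1 had 130 and 172 FPKM in mos2-2 and 198 and 161 FPKM in Col-0. H1.2 had 99.8 and 93.0 FPKM in mos2-2 and 111 and 96.2 FPKM in Col-0, and its log2 difference of -0.10 (SE 0.26) became 0.01 with median-ratio scaling of the libraries and 0.03 with quantile normalization. The summed H1 over the summed H4 was 0.195 and 0.191 in mos2-2, against 0.142 and 0.231 in Col-0, and the 2 Col-0 libraries bracketed both mos2-2 libraries.

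Several properties were set beside the excess in Col-0 replicate 1, and their part in it was not tested. Histone transcripts are short, and the difference between the Col-0 libraries varied with transcript length. In transcripts over 700 and up to 900 nt, where 23 of the histone genes fall, the median log2 difference of Col-0 replicate 1 over replicate 2 was 0.33 for all 1251 genes and 0.77 for the histone genes. Above 3000 nt the median of all genes was 0.09. With the length trend removed, a step chosen after the data were seen, the histone median was 0.42 and that of all genes 0.01. Median-ratio scaling and quantile normalization each left 0.54 for the histone genes. Histone genes without introns, 22 of the 41, had a median of 0.80, and the 19 with introns had 0.59. All 22 were H4, H3.1 or H2B genes, so this split is largely one of histone type as well. The 10 genes with the promoter octamer had a median of 0.70 and the 31 without it 0.72.

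**Figure D4:**
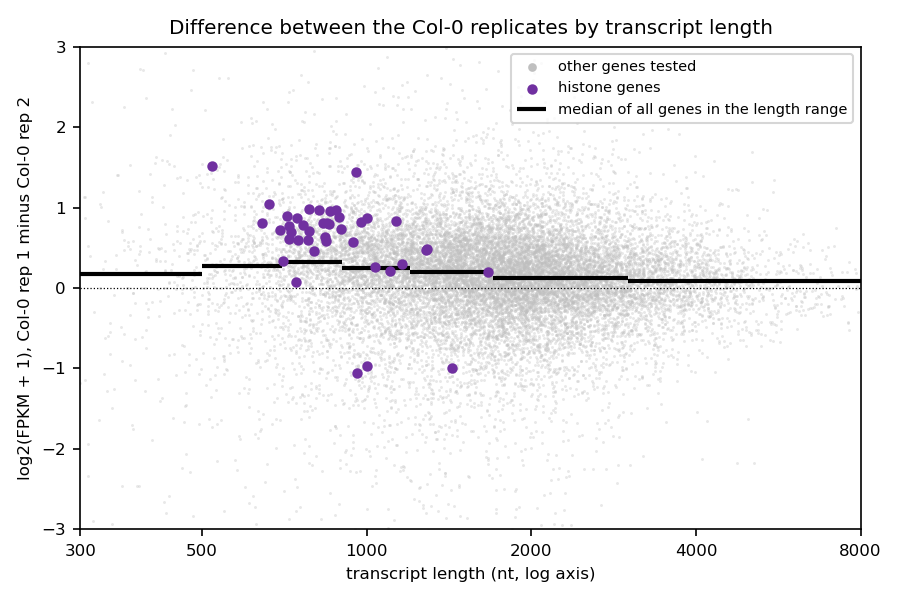
Each point is a gene, with transcript length on a log axis and the log2(FPKM + 1) difference of Col-0 replicate 1 over Col-0 replicate 2; black lines are medians over all genes of a length range. A total of 561 genes, none of them histone genes, lie beyond the axes. Most histone points sit above the line of their length range, and HTA12, HTB3 and H1.3 sit near -1.

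Between the 2 mos2-2 libraries the histone genes also differed in 1 direction. Replicate 2 was above replicate 1 for 35 of the 41, and for 7937 of all 19236 genes, with a median log2 difference of 0.21 for the histone genes and -0.09 for all. The 2 mos2-2 libraries together stood about level with Col-0 replicate 2. Both were below it for 15 histone genes, both above it for 10 and on either side of it for 16.

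Genes that work with histones were read from lists, of which none had a member past an adjusted p of 0.05 in limma. A list of 18 genes held genes of DNA replication and regulators that act ahead of it. Of these, 17 were tested, with a median log2 difference of 0.16, 13 higher and 4 lower. Over all genes tested the median was -0.09, and 59.4% were lower in mos2-2. Col-0 replicate 1 was highest for 5 of these 17 (29.4%), against 41.6% of all genes. MCM3, a subunit of the replicative helicase, had 10.06 and 10.57 FPKM in mos2-2 and 8.20 and 5.70 FPKM in Col-0. The list summed to 187 and 234 FPKM in mos2-2 and 213 and 173 FPKM in Col-0. TSO2, a ribonucleotide reductase subunit, was singled out after its values were seen. Without it the sums were 148 and 148 FPKM in mos2-2 and 156 and 129 FPKM in Col-0. The library with the highest sum thus changed with the removal of 1 gene. Of the 9 genes of G2 and mitosis, 8 were highest in Col-0 replicate 1, and the median difference was -0.24, 1 higher and 8 lower. They summed to 87.8 and 77.2 FPKM in mos2-2, against 122 and 80.8 FPKM in Col-0. CDKB2;1, a mitotic kinase, had 11.4 and 11.6 FPKM in mos2-2 and 16.9 and 13.2 FPKM in Col-0.

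The 13 histone chaperones, proteins that carry histones to DNA, had a median difference of -0.06, with 3 higher and 10 lower. This median was near the -0.09 of all genes tested, of which 59.4% were lower. Col-0 replicate 1 was highest for 6 of the 13 (46.2%), near the 41.6% of all genes. NAP1;2, which binds H2A and H2B, had 114 and 98.6 FPKM in mos2-2 and 187 and 113 FPKM in Col-0, with Col-0 replicate 1 the highest library. The 3 genes for H2A.Z deposition had a median of -0.02, and SEF, a subunit of the SWR1 complex, had 11.4 and 11.0 FPKM in mos2-2 and 19.9 and 11.4 FPKM in Col-0. Of 8 further histone genes outside the 41, 3 were tested and 5 fell below the filter. HTA4 (AT4G13570) was at 0.823 FPKM in mos2-2 replicate 1 and stood at 0 in the list for mos2-2 replicate 2. In Col-0 it had 6.70 and 8.66 FPKM, and it passed the filter through Col-0 alone. Its log2 difference was -2.68, with a limma p of 0.0013 before and 0.518 after adjustment. HTR11, an H3 gene, had 0.842 and 2.60 FPKM in mos2-2 and 5.13 and 3.94 FPKM in Col-0, with a limma p of 0.0482 before and 0.711 after adjustment. CENH3, the centromeric H3, had 3.78 and 6.03 FPKM in mos2-2 and 5.74 and 4.94 FPKM in Col-0.

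Markers of dividing or floral tissue also differed between libraries, and their part in the histone levels was not tested. The meristem gene STM had 3.52 and 12.1 FPKM in mos2-2 and 13.3 and 11.7 FPKM in Col-0, and WUS was at or near 0 throughout. All 3 flower genes were highest in Col-0 replicate 1 and lowest in mos2-2 replicate 1, and they summed to 4.16 and 20.3 FPKM in mos2-2 and 29.8 and 9.23 FPKM in Col-0. Of the 41 histone genes, 24 (58.5%) had their lowest level in mos2-2 replicate 1, against 23.7% of all genes tested. By type these were 5 of 8 H4, 2 of 5 H3.1, 0 of 3 H3.3, 3 of 4 H2A, 2 of 3 H2A.W, 2 of 2 H2A.X, 2 of 3 H2A.Z, 7 of 10 H2B and 1 of 3 H1 genes.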

How the data were processed

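RNA-seq libraries from 2 mos2-2 and 2 Col-0 seedling samples were used, prepared from poly(A) RNA for the Illumina GAIIx per the labels' protocols. The deposited values are FPKM per locus, which the authors obtained from TopHat and Cuffdiff (TAIR10 build), per the submitters' processing notes. Tool versions, the strand setting and how multiply matching reads were shared out are not given in the sources used. The 41 members, the other gene lists and the tests were chosen with earlier results of these data known. Any member could be named. Of each other list, up to 4 genes with the smallest unadjusted p could be named, and MOS2 as the check of the line. TSO2 and HTR14 were named outside this rule, after their values were seen. The 19236 genes that averaged 1 FPKM or more were fitted by genotype on log2(FPKM + 1), using limma 3.58.1 (R 4.3.3), with a mean-variance trend and Benjamini-Hochberg adjustment over all of them (2 residual degrees of freedom, adjusted p threshold 0.05, two-sided). Fold changes on that scale understate the change of low genes. Alternatives were other pseudocounts, filters and scalings, no trend, a replicate block, each library left out and, added after seeing the data, a lowess correction for transcript length. The fit was also run on simulated data with independent noise in each library, without a length trend or a deviating library. That run therefore says nothing on how Col-0 replicate 1 affects the fit. Depth was estimated from the FPKM that 1 read is worth in low genes of 1500 to 4000 nt. No counts were used. Lengths, coordinates and promoters came from the TAIR10.1 annotation and genome of RefSeq.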

Additional observations from a re-analysis of the deposited data

How the results depend on the processing

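No histone gene passed the threshold in limma under any setting tried, and the histone median stayed below 0 in each. Among all genes, the number past the threshold was 12 as reported, 7 when the variance trend was dropped, 4 for a pseudocount of 5, 4 when no low-value filter was applied and 0 with the length trend removed or with any library left out. The replicate number as a block gave 6 genes and no histone gene. No label says that the numbers pair the libraries, so the block is given here only. Deviations of libraries with the same number correlated at 0.21 over all genes and at -0.45 over the histone genes. The latter was not computed without H1.3, whose mos2-2 libraries stood furthest apart of the 41. Leaving out 1 library gave a histone median between -0.69 and -0.050, and between 22 and 39 histone genes lower in mos2-2. The log2 ratio of summed FPKM then ran between -0.80 and 0.033 for H4, -0.64 and 0.10 for H3.1, -0.41 and 0.15 for H3.3, -0.62 and 0.16 for canonical H2A and -0.60 and 0.095 for H2A.Z. For H1 it was -0.18 with median-ratio scaling and -0.20 with quantile normalization. Single genes turned direction mainly without Col-0 replicate 1, and the cause was not tested. Over the libraries left out, the log2 difference ran between -0.68 and 0.043 for AT3G45930, -0.55 and 0.26 for AT3G46320, -0.63 and 0.24 for AT5G59690 and -0.65 and 0.088 for AT5G59970. It ran between -0.60 and 0.19 for HTR2, -0.79 and 0.18 for HTR9, -0.49 and 0.12 for HTR1, -0.37 and 0.11 for HTR5 and -0.95 and 0.021 for HTR8. For the H2A family it ran between -0.41 and 0.64 for HTA13, -0.55 and 0.16 for HTA2, -0.48 and 0.12 for HTA6, -0.83 and 0.16 for HTA12, -0.70 and 0.11 for HTA3, -0.86 and 0.11 for HTA8, -0.51 and 0.079 for HTA9 and -0.76 and 0.12 for HTA11. For HTB6 it ran between -0.88 and 0.56, for HTB2 between -0.69 and 0.12 and for H1.2 between -0.20 and 0.0024. With the length trend removed AT3G46320 was at 0.045 and H1.2 at 0.0014, and H1.2 was at 0.014 with median-ratio scaling and 0.026 with quantile normalization. With 1 library left in a genotype, it is assumed to vary like the others. Depth is known only from low values, and Col-0 replicate 1, on which most differences turn, is the shallowest library.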
